A study of Rattus norvegicus with 9 samples.

Results

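The genes described here are 5 parts of the sodium-potassium pump, or Na,K-ATPase, and of the small membrane proteins that tune it: the β subunit genes Atp1b1, Atp1b2 and Atp1b3 and the FXYD genes Fxyd2 and Fxyd5. They were chosen by name from the 28343 genes of the count table, with the higher level of Fxyd2 in diabetic libraries already known, so every comparison of the groups for these 5 genes is a description and carries no test. All 5 were among the 11748 genes with enough counts to be fitted.

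RNA came from CD11b-positive cells sorted from papain-digested whole retinas of Dark Agouti rats. The control group of 5 libraries (numbered 1, 3, 4, 5 and 6) came from rats injected with citrate buffer. The diabetic group of 4 libraries (numbered 1, 2, 4 and 5) came from rats injected with streptozotocin at 55 mg/kg, which destroys pancreatic β cells. Injections in both groups followed 12 hours of fasting, and the labels of every sample give 8 to 10 weeks as the age at which rats were made diabetic. Retinas were taken 4 weeks later, and any diabetic rat with a glucose reading above 30 mmol/l was given 2 units of insulin. CD11b is carried by microglia, the resident macrophages of the retina, and also by other myeloid cells, so the sort does not separate them. The labels do not say whether each library came from 1 animal or from pooled animals, so the spread between libraries may be partly technical. Library totals ran from 9156591 to 11332823 counts in the control group and from 6228756 to 9629829 in the diabetic group, with diabetic 4 the lowest. A list of 15 microglia genes held 34701 to 39568 CPM (counts scaled to library size after correction with TMM factors) in controls against 34674 to 36756 CPM in the diabetic group, and only Siglech of that list was at 0 in every library.

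The sodium-potassium pump moves sodium out of the cell and potassium in, at the cost of ATP. Its catalytic α subunit binds the ions and ATP, its glycosylated β subunit is needed for folding and delivery to the plasma membrane, and an FXYD protein bound beside them sets the affinity for ions or the turnover. In retina the β2 form is known from photoreceptors and other neurons and as an adhesion molecule of glia, and the γ subunit made by Fxyd2 is best known from kidney tubules.

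Start-site windows were looked up for all 5 members to show what lies in front of the genes, and none was found for Fxyd2 or Atp1b1. RefSeq windows on the build GRCr8 were matched for 3 of the 5 members, and the 250 bases before the start are given 5′ to 3′ on the gene's strand for Atp1b3, the member with the most counts, Atp1b2, whose level followed neuronal RNA, and the outermost start of Fxyd5, the member with the highest level per length of those that could be compared. Capitals mark the GC box GGGCGG, the TATA box TATAAA and the CCAAT box CCAAT, each searched on both strands.
Atp1b3 (chr8:105821152-105821401, minus strand): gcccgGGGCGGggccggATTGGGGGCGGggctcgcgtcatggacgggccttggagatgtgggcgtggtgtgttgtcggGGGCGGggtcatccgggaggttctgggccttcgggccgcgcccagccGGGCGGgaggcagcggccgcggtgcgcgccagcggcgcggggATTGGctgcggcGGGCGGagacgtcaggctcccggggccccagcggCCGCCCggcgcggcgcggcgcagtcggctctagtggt
Atp1b2 (chr10:54823709-54823958, minus strand): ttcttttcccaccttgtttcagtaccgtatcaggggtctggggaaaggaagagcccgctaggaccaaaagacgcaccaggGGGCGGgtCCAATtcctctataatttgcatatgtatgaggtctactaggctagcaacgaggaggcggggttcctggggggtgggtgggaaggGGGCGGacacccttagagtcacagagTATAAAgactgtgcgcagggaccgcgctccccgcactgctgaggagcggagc
Fxyd5 (chr1:95404723-95404972, minus strand): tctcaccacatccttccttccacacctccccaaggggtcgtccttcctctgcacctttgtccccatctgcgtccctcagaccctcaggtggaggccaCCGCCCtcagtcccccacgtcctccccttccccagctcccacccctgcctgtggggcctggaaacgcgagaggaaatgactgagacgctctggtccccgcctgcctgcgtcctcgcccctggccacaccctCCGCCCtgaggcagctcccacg
The Atp1b3 window held 6 GC boxes, 2 CCAAT boxes and no TATA box, with a GC content of 79.6%. In its longest run of capitals a reversed CCAAT box and a GC box lie end to end without overlap. The Atp1b2 window held 2 GC boxes, 1 CCAAT box and 1 TATA box that begins 52 bases before the start, at a GC content of 58.0%. The Fxyd5 window held 2 GC boxes, both on the other strand, and neither of the other motifs, at 67.2% GC. Of 33469 RefSeq windows of the same length, 30.5% held a GC box, 12.9% a TATA box and 34.0% a CCAAT box, and the median GC content was 51.2%. These matches describe letters only.

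Fxyd2 encodes the γ subunit, a single-pass protein that lowers the pump's affinity for sodium and potassium in kidney. It was the member with the largest difference between the groups. Control libraries 1, 3, 4, 5 and 6 had 11, 13, 11, 7 and 6 counts, or 1.04, 1.13, 1.18, 0.749 and 0.773 CPM. Diabetic libraries 1, 2, 4 and 5 had 49, 37, 30 and 30 counts, or 4.84, 3.78, 4.78 and 2.999 CPM. The groups did not overlap: every diabetic library was above every control in counts and in CPM, and diabetic 5 was the lowest of its group. Controls averaged 0.974 ± 0.201 CPM (SD, n = 5) against 4.10 ± 0.879 CPM (SD, n = 4) under diabetes, for a log2 fold change of 2.05 (SE 0.48) or 4.13-fold. The gene is sparse: only 9.12% of the fitted genes had a lower mean log2 CPM, so each value rests on few reads.

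**Figure D1:**
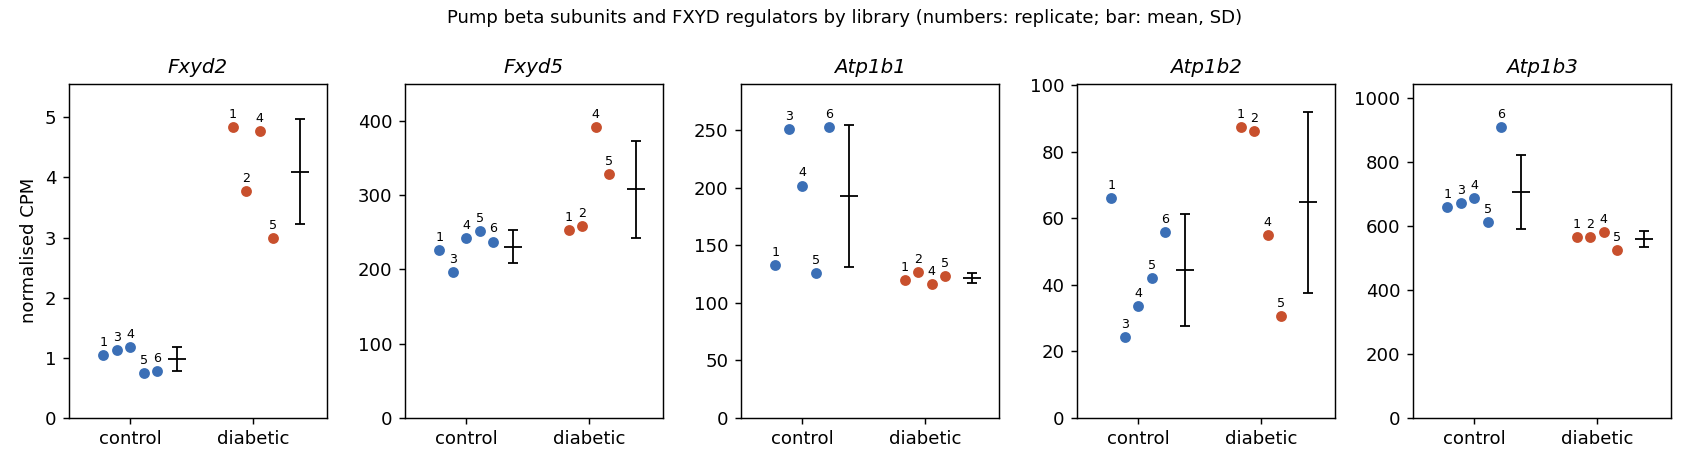
Normalised CPM of each member (vertical axes start at 0 and differ between panels) in control (blue) and diabetic (orange) libraries, with replicate numbers beside the points and the mean and SD as bars. Fxyd2 and Fxyd5 lie higher and Atp1b3 lower in all 4 diabetic libraries, Atp1b1 spreads from 126 to 252 CPM in control libraries and from 116 to 127 CPM in diabetic libraries, and Atp1b2 overlaps between the groups.

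In the fit across all genes (Benjamini-Hochberg adjusted p from the quasi-likelihood test of edgeR) 1 of the 5 members was called at an adjusted p below 0.05, namely Fxyd2, where the share of all fitted genes called was 0.0681% (0.0426% called higher and 0.0255% called lower). Since this contrast chose the members, nothing is read from that count. The groups did not overlap for 3 of the 5 members, Fxyd2, Fxyd5 and Atp1b3, where the share of all fitted genes was 8.44% (4.27% higher and 4.16% lower). The call of Fxyd2 was lost when any library other than control 1 was left out, while its log2 fold change stayed between 1.95 and 2.17 over the 9 libraries left out in turn. The authors' deposited table, which called 2.10% of its genes (1.92% higher), gave log2 fold changes of 2.15 for Fxyd2, 0.53 for Fxyd5, -0.53 for Atp1b1, 0.68 for Atp1b2 and -0.21 for Atp1b3. These come from the same libraries and are not a separate result. The edgeR fit without scaling factors gave 2.16, 0.53, -0.53, 0.68 and -0.21 in the same order.

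The authors' transcript assemblies on the build Rnor6 show which parts of Fxyd2 (ENSRNOG00000016469, plus strand of chromosome 8, reference transcript from 49710477 to 49716955, 5 exons and 195 bases, shorter than most assembled transcripts) were covered in each library. TPM, the length-corrected share of a transcript within its library, was summed over the assembled transcripts on the gene's strand. Control libraries 1, 3, 4, 5 and 6 had 8.45, 8.67, 6.16, 6.68 and 6.81 TPM, and diabetic libraries 1, 2, 4 and 5 had 37.4, 31.8, 39.6 and 15.9 TPM. The groups did not overlap on this scale either, and diabetic 5 was again the lowest diabetic library. The log2 fold change of TPM plus a pseudocount of 0.1 was 2.00, but both scales come from the same reads.

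The assembled first exons differed between libraries. In diabetic 1 a transcript of 6 exons and 499 bases began at 49710444, 33 bases before the reference start, and ended at 49717486, past the reference end. The reference transcript itself was also assembled there, at 0.61 TPM. In diabetic 2 and diabetic 4 the first exon lay inside the first intron of the reference, at 49713111 to 49713252 and 49713070 to 49713252, and was spliced to the second reference exon. The last exons of these libraries were assembled as a separate transcript of 3 exons. In control 1, control 3, control 4 and diabetic 5 the assembled transcript had 5 exons and began at 49715427 to 49715436, next to the start of the second reference exon. In control 5 and control 6 only the last 3 and the last 2 exons were assembled. Neither upstream first exon was assembled in a control library, but with 6 to 13 counts per library their absence there is not detectable at this depth, and the use of first exons was not compared between the groups.

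**Figure D2:**
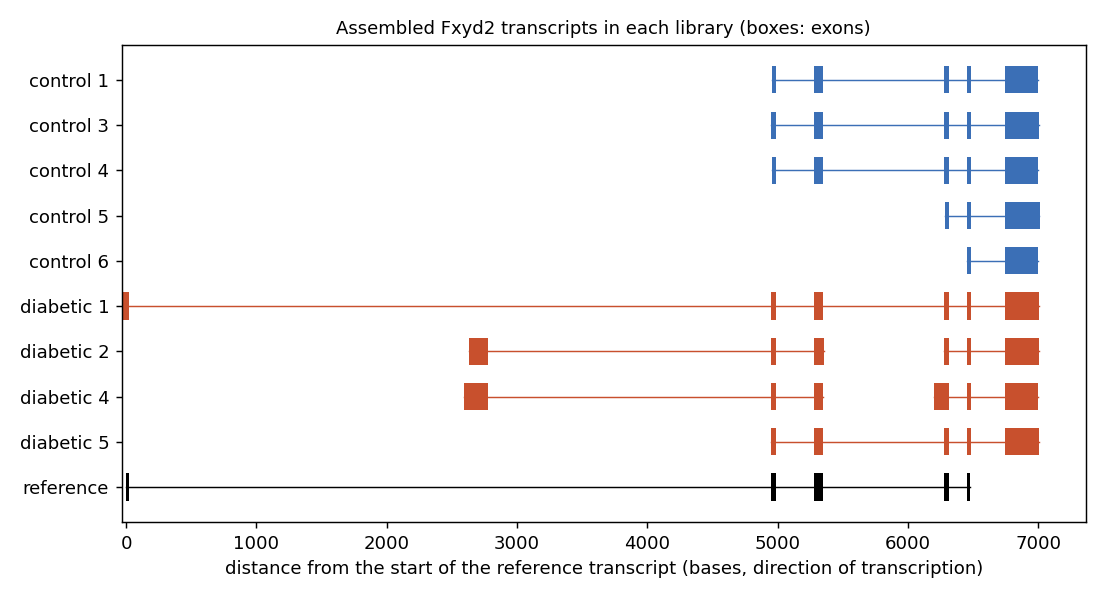
Assembled Fxyd2 transcripts on the gene's strand in each library and the reference transcript (black), drawn along the distance from the reference start in bases, with boxes for exons and lines for introns (the shortest exons are drawn 25 bases wide). The reference transcript was also assembled in diabetic 1, at 0.61 TPM, and is not drawn for that library. The first exons in diabetic 1, and in diabetic 2 and 4, lie at different places, and no control library has an assembled exon upstream of the second reference exon.

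Fxyd5, the gene of dysadherin, encodes an FXYD protein with a long extracellular part that is known from epithelia and leukocytes and reduces cell adhesion. Control libraries 1, 3, 4, 5 and 6 had 226, 196, 243, 252 and 238 CPM. Diabetic libraries 1, 2, 4 and 5 had 253, 259, 392 and 329 CPM. All diabetic libraries lay above the controls, but diabetic 1 exceeded control 5 by little, and diabetic 4 and 5 stood above the rest. The means were 231 ± 21.6 CPM (SD, n = 5) and 308 ± 65.5 CPM (SD, n = 4), and the fitted log2 fold change was 0.42 (SE 0.16), which was 0.28 without diabetic 4. Fxyd5 (ENSRNOG00000021062, Rnor6 chromosome 1, 89464860 to 89474252, minus strand, 9 exons) had 173 to 302 TPM in control and 285 to 344 TPM in diabetic libraries, and on that scale control 5 lay above diabetic 1.

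Atp1b3 encodes the β3 subunit, also known as CD298, a common β form outside nerve and muscle. It had the most counts of the members, above 98.5% of the fitted genes in mean log2 CPM. Control libraries 1, 3, 4, 5 and 6 had 659, 671, 687, 614 and 910 CPM, and diabetic libraries 1, 2, 4 and 5 had 566, 567, 583 and 525 CPM. All diabetic libraries lay below the controls, and control 6 stood apart above the rest. The means were 708 ± 116 CPM (SD, n = 5) and 560.1 ± 24.96 CPM (SD, n = 4), and the fitted log2 fold change was -0.34 (SE 0.13). Without control 6 it was -0.23.

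Atp1b1 encodes the β1 subunit, the main β form of most tissues. Control libraries 1, 3, 4, 5 and 6 had 133, 251, 202, 126 and 252 CPM. Diabetic libraries 1, 2, 4 and 5 had 120, 127, 116 and 123 CPM. The diabetic libraries lay close together at the level of controls 1 and 5, while controls 3, 4 and 6 were higher, so the groups overlapped. The means were 193 ± 61.4 CPM (SD, n = 5) and 121 ± 4.66 CPM (SD, n = 4), and the fitted log2 fold change was -0.67 (SE 0.26). Controls 4 and 6 also had the highest levels of a list of immediate-early and stress genes of cell isolation (34622 and 50020 CPM), but control 3 had the lowest of all 9 libraries (5181 CPM), and with that list as a covariate the log2 fold change was -0.69. With the bipolar cell genes described below as a covariate it was -0.16. On the gene's strand the locus of Atp1b1 (ENSRNOG00000002934, Rnor6 chromosome 13, 82737159 to 82758004, minus strand, 6 exons in the longest reference transcript) held 14.2 to 41.4 TPM in control and 8.23 to 32.5 TPM in diabetic libraries. The log2 fold change of these sums was -0.30. They leave out transcripts assembled on the other strand, which held 27.4 (diabetic 2) to 70.2 TPM (control 6).

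The 2 most counted β genes did not keep a fixed proportion. There were 20.1, 37.4, 29.4, 20.5 and 27.7 Atp1b1 counts per 100 Atp1b3 counts in control libraries 1, 3, 4, 5 and 6, and 21.1, 22.4, 19.9 and 23.4 in diabetic libraries 1, 2, 4 and 5. The diabetic libraries and controls 1 and 5 shared a narrow band. Over the 9 libraries Pearson's r of log2 CPM between Atp1b1 and Atp1b3 was 0.82, and 0.64 after each group's mean was subtracted, the highest of the 10 member pairs on both measures. Fxyd2 and Atp1b3 had an r of -0.71 over the 9 libraries but -0.040 after subtraction. The r of Fxyd2 with Fxyd5 went from 0.65 to -0.19 in the same way. All members share the same libraries and scaling, and 9 libraries set wide limits on each r.

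Atp1b2 encodes the β2 subunit, first described as the adhesion molecule on glia. Control libraries 1, 3, 4, 5 and 6 had 66.0, 24.2, 33.5, 42.1 and 55.9 CPM. Diabetic libraries 1, 2, 4 and 5 had 87.4, 86.1, 54.9 and 30.5 CPM. Diabetic 1 and 2 were highest, but diabetic 5 was below 4 of the controls, so the groups overlapped. The means were 44.4 ± 16.8 CPM (SD, n = 5) and 64.7 ± 27.3 CPM (SD, n = 4), and the fitted log2 fold change was 0.55 (SE 0.41). At the Atp1b2 locus (ENSRNOG00000011227, Rnor6 chromosome 10, 56205625 to 56211891, minus strand, 7 exons) the log2 fold change of TPM on the gene's strand was 0.047. Transcripts on the other strand, left out of that sum, held 7.30 (control 4) to 35.1 TPM (diabetic 1).

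Atp1b2 moved with RNA of inner retinal neurons. The 21 genes of that marker list summed to 195, 94.3, 128, 136 and 161 CPM in control libraries 1, 3, 4, 5 and 6 and to 381, 253, 203 and 129 CPM in diabetic libraries 1, 2, 4 and 5, and Snap25 and Syt1 were among its leading genes. Of its 16 fitted genes 11 had a log2 fold change above 0, 6 of them at an unadjusted p below 0.05, and 2 were lower at that p. Of all fitted genes, 8.94% were higher and 10.0% lower at that p. The list did not move as one: the bipolar cell gene Pcp2 averaged 5.85 ± 1.25 CPM in controls and 17.98 ± 7.64 CPM under diabetes, while the neurofilament gene Nefl, high in ganglion cells, averaged 8.84 ± 3.97 and 5.31 ± 1.42 CPM (SD, n = 5 and 4). Of other genes used for ganglion cells, Thy1 was at 3.22 and 2.92 CPM and Pou4f1 at 0 in all libraries. Within each group the order of the libraries by Atp1b2 was the order by that list. Of all fitted genes, the one most like Atp1b2 over the 9 libraries was Snap25, a synaptic vesicle fusion gene, with an r of 0.98 that stayed at 0.98 with group means subtracted. It was followed by Slc1a7, a glutamate transporter of retinal neurons (r = 0.97), and by LOC100364190 (r = 0.97). With the log2 level of the neuron list as a covariate, an alternative chosen after the data were seen, the log2 fold change of Atp1b2 was -0.29 in place of 0.55, and with the 6 bipolar cell genes of the list alone it was -0.51. Without control 1, diabetic 1 and diabetic 2, the libraries with the most of this RNA in their groups, it was 0.13. In bulk RNA, more cells of a type and more RNA per cell cannot be told apart.

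**Figure D3:**
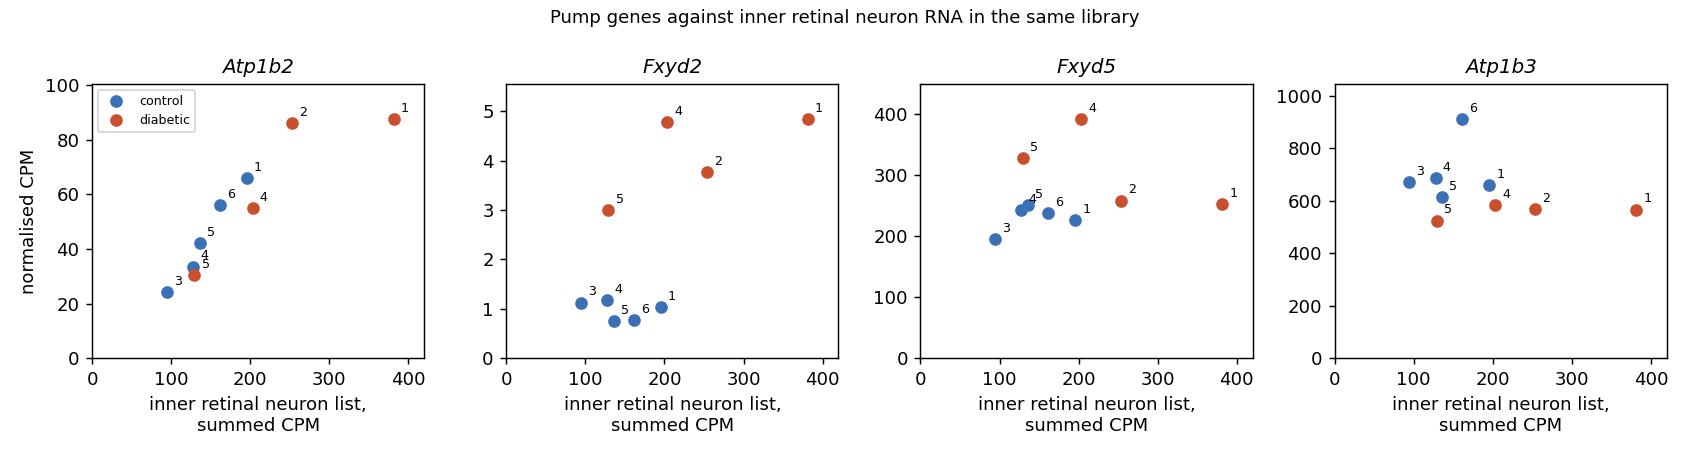
Normalised CPM of 4 members (vertical axes, from 0) against the summed CPM of the inner retinal neuron list in the same library (horizontal axes), for control (blue) and diabetic (orange) libraries with replicate numbers. Atp1b2 climbs with the list in both groups, Fxyd2 separates the groups at like list values (control 4 at 1.18 and diabetic 5 at 2.999 CPM), and Fxyd5 and Atp1b3 show no such climb across the groups.

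Fxyd2 was set against the same list and against markers of border macrophages, since both were higher in part of the diabetic libraries. Diabetic 5, with 129 CPM of neuron RNA, lay within the control range of 94.3 to 195 CPM and had 2.999 CPM of Fxyd2, where controls had up to 1.18 CPM. That sum is led by Snap25, and its bipolar cell genes were higher in more of the diabetic libraries. The 6 bipolar cell genes, Isl1, Grm6, Trpm1, Pcp2 and Prkca among them, summed to 64.6, 26.4, 33.7, 45.2 and 31.96 CPM in control libraries 1, 3, 4, 5 and 6 and to 169.1, 88.3, 98.7 and 51.1 CPM in diabetic libraries 1, 2, 4 and 5. Only control 1 lay above a diabetic library, diabetic 5. Pcp2 alone did not overlap between the groups, as for Fxyd2, with 5.03 to 8.02 CPM in controls and 8.60 to 24.4 CPM under diabetes, and Prkca did not overlap either. The 8 border macrophage genes, led by Lyve1, F13a1 and Cd163 and all detected in every library, summed to 395 to 802 CPM in controls against 673 to 1481 CPM under diabetes. Diabetic 2 had less of them (673 CPM) than control 3 (802 CPM), with Fxyd2 at 3.78 CPM against 1.13 CPM. That sum is led by Lyve1, at 224 CPM in diabetic 2 and 364 CPM in control 3, while Cd163 was at 119 and 51.3 CPM. Of the list, 2 genes, Cd163 and Colec12, did not overlap between the groups, as for Fxyd2. With the neuron list as a covariate the log2 fold change of Fxyd2 was 1.89, with the bipolar cell genes 1.73, and with the border macrophage list 1.78. The gene was no longer called in any of these 3 fits, nor was any other gene by the quasi-likelihood test of edgeR. Before adjustment, p was below 0.05 for 1153, 464 and 918 genes in those fits. The part of neuronal or macrophage RNA in the level of Fxyd2 was not tested beyond these values.

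Levels of the other marker lists stand beside these values. Photoreceptor genes, with Gnat1 and Sag among the leading ones, summed to 249 to 1337 CPM in controls against 396 to 1913 CPM under diabetes, and with that list as a covariate the log2 fold change of Fxyd2 was 2.07. Neutrophil and monocyte genes summed to 307 to 386 and 319 to 387 CPM, most of it Csf3r, while S100a9 ran from 0.214 to 5.57 CPM in controls against 14.8 to 52.9 CPM under diabetes, without overlap as for Fxyd2, and Ccr2 was at 0 in all libraries. Muller glia genes summed to 12503 to 17510 and 12199 to 14032 CPM, most of it Apoe, and vascular genes to 214 to 402 and 166 to 247 CPM. Red blood cell genes stayed at or below 8.21 CPM in controls and 11.1 CPM under diabetes. Lymphocyte genes summed to 788 to 947 and 725 to 985 CPM, nearly all of it Cd4 with Cd3d, Cd3g, Ms4a1 and Nkg7 at 0, and pigment epithelium genes to 1281 to 1808 and 1547 to 1789 CPM, nearly all of it Best1 with Lrat, Mlana and Tyr at 0. Cell isolation genes ran from 5181 to 50020 CPM in controls against 14482 to 24328 CPM under diabetes, and with them as a covariate the log2 fold change of Fxyd2 was 2.08. The part of the lymphocyte, pigment epithelium, glial, vascular, red cell and neutrophil lists in the level of the members was not tested.

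The levels of the members were compared with each other per length of their longest reference transcript, as CPM per kilobase, for the 4 members whose transcript is named in the assemblies (Atp1b3 is not among them). Fxyd5 (930 bases) was highest, with 248 ± 23.3 (SD, n = 5) in control and 331 ± 70.5 (SD, n = 4) in diabetic libraries. Atp1b1 (2528 bases) followed with 76.2 ± 24.3 and 48.0 ± 1.84 CPM per kilobase, then Atp1b2 (3009 bases) with 14.7 ± 5.59 and 21.5 ± 9.08, and Fxyd2 (195 bases) with 4.99 ± 1.03 and 21.0 ± 4.51. Assembled Fxyd2 transcripts of 5 or 6 exons, other than the reference itself, had 434 to 499 bases. The counting step is not described, so which of these bases the counts cover is not known. How the reference length shifts the level of Fxyd2 per kilobase was not tested. Fxyd5 exceeded Atp1b1 in 9 of 9 libraries, by 2.21 on the log2 scale (exact sign-flip permutation test over libraries, two-sided, p = 0.00391, adjusted 0.00586 over 3 neighbouring pairs). Atp1b1 exceeded Atp1b2 in 9 of 9 libraries, by 1.90 (exact permutation p = 0.00391, adjusted 0.00586). This p is the smallest that 9 libraries can give. The sizes depend on the measure used: with the mean reference length they were 1.502 and 2.60, and on TPM assembled on the gene's strand 3.49 and 1.35. Over both groups together, the order of Atp1b2 and Fxyd2 was not separated by the test (mean log2 ratio 0.81, from -0.60 to 2.23, exact permutation p = 0.0547). The mean levels were 14.7 and 4.99 in controls but 21.5 and 21.0 under diabetes. The pooled test therefore does not give the order within a group. On TPM summed over the transcripts assembled on the gene's strand, the ratio was -0.53, and the cause of this change was not tested.

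The catalytic and FXYD partners came from a list of 13 genes of the pump and its closest relatives, all present in the count table. Of its 6 fitted genes none was called higher or lower by edgeR's quasi-likelihood test, none had an unadjusted p below 0.05, and none was called by the DESeq2 Wald test or limma-voom either. The median log2 fold change of the 6 was 0.30, beside 0.0018 over all fitted genes. The share of all fitted genes at an unadjusted p below 0.05 was 18.9%.

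The partners described here were sparse. Atp1a4, a catalytic subunit known from sperm, had 7 to 34 counts, with the most in diabetic 1, and a fitted difference of 0.89 on the log2 scale (SE 0.53, quasi-likelihood adjusted p = 0.331). That value was 0.45 without diabetic 1 and -0.21 with the neuron list as a covariate. Fxyd1, or phospholemman, had 8 to 28 counts and a fitted difference of 0.30 on the log2 scale (SE 0.43, quasi-likelihood adjusted p = 0.709), which turned to -0.086 without diabetic 1, -0.33 with the neuron list and -0.43 with the border macrophage list as a covariate. Fxyd6, which neighbours Fxyd2 in RefSeq's annotation of GRCr8, had 3 to 14 counts and a fitted difference of 0.30 on the log2 scale (SE 0.54, quasi-likelihood adjusted p = 0.780), which was -0.0098 without diabetic 2 and -0.26 with the neuron list as a covariate. Fxyd6 was at 0.729 ± 0.316 CPM in controls against 0.897 ± 0.534 CPM under diabetes, and the groups overlapped. Fxyd3, with 24 counts in controls together and 6 in diabetic libraries together, was not fitted, like Atp1b4, Fxyd4, Fxyd7 and Atp4a. Atp4b and Atp12a of the related proton-potassium pumps had 0 counts in all libraries, which allows up to 0.0599 CPM in controls and 0.0870 CPM under diabetes (3 counts over each group, for counting error only).

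**Figure D4:**
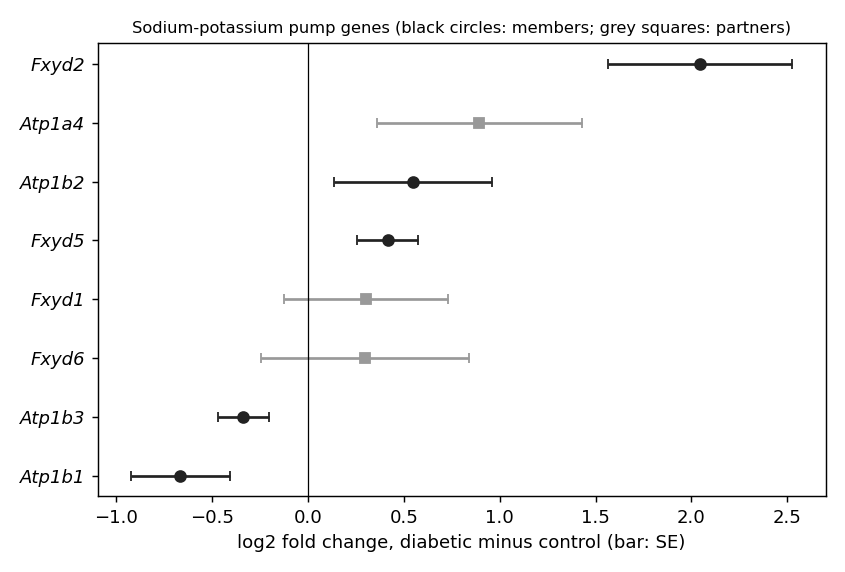
Log2 fold change of diabetic over control libraries with its standard error (bars) for the 5 members (black circles) and 3 fitted partners (grey squares), in order of size. Fxyd2 stands at 2.05, Atp1a4 is at 0.89 with a wide bar (0.45 without diabetic 1), and Atp1b3 and Atp1b1 lie below 0.

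Further lists covered regulators of the pump, transporters of sodium and potassium and the other P-type ATPases. None of their 11, 31 and 20 fitted genes was called by edgeR's quasi-likelihood test. At an unadjusted p below 0.05 there were 1 higher and 1 lower regulator, 2 higher and 5 lower transporters, and 1 higher and 5 lower ATPases, where 8.94% of all fitted genes were higher and 10.0% lower. The median log2 fold changes were -0.18, 0.011 and -0.23. By the DESeq2 Wald test, which called 3.36% of the genes it tested, Slc12a2 (-0.47), Slc1a3 (-0.36) and Atp2b4 (-0.65) were called lower, with adjusted p-values of 0.0276, 0.0350 and 0.0143. With limma-voom none of the 62 genes was called.

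Among the regulators, Nedd4l, a ubiquitin ligase of sodium channels, averaged 68.6 ± 13.2 CPM in controls (SD, n = 5) against 52.4 ± 6.62 CPM under diabetes (SD, n = 4) (quasi-likelihood adjusted p = 0.196). Prkaca, the catalytic subunit of protein kinase A that acts on FXYD proteins, was at 32.4 ± 3.75 and 39.8 ± 3.94 CPM (quasi-likelihood adjusted p = 0.217). Sgk1, the kinase that raises sodium transport in response to steroid hormones, was at 1164 ± 476 and 687 ± 281 CPM, with a wide spread in both groups (quasi-likelihood adjusted p = 0.317).

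Among the transporters, Slc12a2, the cotransporter that brings sodium, potassium and chloride into the cell, averaged 114 ± 16.3 CPM in controls (SD, n = 5) against 82.4 ± 9.58 CPM under diabetes (SD, n = 4), a fitted difference of -0.47 on the log2 scale (SE 0.16, quasi-likelihood adjusted p = 0.106). Slc1a3, a glutamate transporter driven by the sodium gradient, was at 886 ± 67.1 and 693 ± 87.1 CPM (quasi-likelihood adjusted p = 0.119). Slc8a3, a sodium-calcium exchanger, was at 0.850 ± 0.357 and 2.23 ± 0.702 CPM, with all diabetic libraries above the controls on 4 to 31 counts per library (log2 fold change 1.39, SE 0.50, quasi-likelihood adjusted p = 0.124). With the neuron list as a covariate the value of Slc8a3 was 0.95, and with the bipolar cell genes 0.70.

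Among the other ATPases, Atp2b4, a calcium pump of the plasma membrane, averaged 21.7 ± 2.59 CPM in controls (SD, n = 5) against 13.9 ± 2.64 CPM under diabetes (SD, n = 4), without overlap (log2 fold change -0.65, SE 0.21, quasi-likelihood adjusted p = 0.0991). Atp13a2, a lysosomal polyamine transporter, was at 106 ± 12.9 and 83.2 ± 8.73 CPM, without overlap (quasi-likelihood adjusted p = 0.151). Atp2a2, the calcium pump of the endoplasmic reticulum, was at 437 ± 61.2 and 347 ± 22.7 CPM (quasi-likelihood adjusted p = 0.153).

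The genes most like each member over the 9 libraries were taken from all fitted genes by Pearson's r of log2 CPM. For Fxyd2 they were Cmc1 (r = 0.97), Syt3 (0.97), Hist1h1c (0.96), Prdm8 (0.96) and Mrps24 (0.96). With group means subtracted these were 0.83, 0.55, 0.67, 0.77 and 0.73, each lower than over all libraries. Prdm8, a transcriptional regulator known from retinal bipolar cells, averaged 0.832 ± 0.161 CPM in controls (SD, n = 5) against 3.64 ± 1.65 CPM under diabetes (SD, n = 4), a level and difference close to those of Fxyd2. Syt3 is a synaptotagmin of vesicle fusion, Hist1h1c a linker histone, and Cmc1 and Mrps24 encode mitochondrial proteins. For Fxyd5 the genes were Gpsm3 (r = 0.98), LOC100363782 (0.95) and Drap1 (0.95). For Atp1b1 they were Wfs1 (0.98), which encodes the endoplasmic reticulum protein wolframin, P4hb (0.97) and Atf1 (0.96). For Atp1b3 they were Strbp (0.97), Tmem230 (0.97) and Nptn (0.96). For the last 3 members these stayed at or above 0.90 with group means subtracted.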

How the data were processed

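Gene levels come from the raw count table the authors deposited, in which rows are gene symbols and columns are libraries. The submitters' processing notes name bcl2fastq 2.18.0.12, TopHat2 2.0.14, StringTie 1.2.4, edgeR and the build Rnor_6.0, whereas for the counting step neither program nor use of strand is given in the sources used here. Reads of overlapping or antisense genes therefore cannot be told apart. A table deposited by the authors gives their log2 fold changes and p-values. Transcript assemblies hold TPM per transcript, made with StringTie and the Ensembl annotation of Rnor6, per the file headers.

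Genes were kept with filterByExpr (minimum count 10, minimum total 15), scaled with TMM factors and fitted with edgeR 4.0.16 (quasi-likelihood, robust, no covariates) in R 4.3.3, with Benjamini-Hochberg adjustment and a threshold of 0.05. DESeq2 1.42.0 and limma 3.58.1 served as alternatives. The SE was back-calculated from the log2 fold change and its two-sided p under a normal distribution. Log2 CPM uses a prior count of 2. The script was tested on simulated counts. Named genes are the members, the partners with at least 10 counts in a library, called genes of each other list or else the 3 with the smallest p, and the most alike genes, and some genes of these lists are not reported here. The members and lists were chosen with earlier results of these data known.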

Additional observations from a re-analysis of the deposited data

Results flagged for a closer look

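Atp1b3 in control 6 stood at 910 CPM, apart from the other 4 controls at 614 to 687 CPM. Its gap to the nearest control was 0.714 of the group's range on the log2 scale, above Dixon's critical value for 5 samples. It was the only such value among 46 groups of libraries examined for the members, their partners and the marker lists, where chance flags about 1 in 20. Control 6 also had the most cell isolation RNA (50020 CPM, other controls 5181 to 34622 CPM) and the lowest TMM factor (0.839). With the cell isolation list as a covariate the log2 fold change of Atp1b3 was -0.36.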

How the results depend on the processing

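Of 119 results for the members' log2 fold changes under alternatives, 117 kept their sign and 115 moved by less than the spread between libraries. The exceptions were Atp1b2 with the inner retinal neuron covariate (-0.29) and, with the bipolar cell covariate, Atp1b2 (-0.51), Atp1b1 (-0.16) and Fxyd2 (1.73). This measure is loose: for Atp1b2 the spread (pooled SD 0.64 of log2 CPM) exceeds its log2 fold change of 0.55. Its fall to 0.13 without control 1, diabetic 1 and diabetic 2 therefore counts as unmoved. Leaving out 1 library gave 1.95 to 2.17 for Fxyd2, 0.28 to 0.50 for Fxyd5, -0.79 to -0.55 for Atp1b1, 0.37 to 0.78 for Atp1b2 and -0.39 to -0.23 for Atp1b3. The count of members called was 1. It was 2 by the DESeq2 Wald test (Atp1b1 added) and with the cell isolation covariate (Atp1b3 added). It was 0 with limma-voom, the replicate block, the neuron, bipolar cell or border macrophage covariate, without control 1, diabetic 1 and diabetic 2, and without controls 4 and 6, and 0 to 1 when 1 library was left out.

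Of all genes 8 were called, 5 of them (62.5%) higher. The count was 31 with upper-quartile factors (87.1% higher) and 29 without factors (96.6% higher), which shifted the middle of all fitted log2 fold changes to 0.12. It was 42 without a filter on low counts, 599 by the DESeq2 Wald test (46.9% higher), 4 with limma-voom, 1409 with the cell isolation covariate (38.0% higher), and 0 with the replicate block, the neuron, bipolar cell or border macrophage covariate, without control 1, diabetic 1 and diabetic 2, or without controls 4 and 6, with 1129 genes at an unadjusted p below 0.05 under the block. Leaving out 1 library gave 0 to 75.

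Under the DESeq2 Wald test 2 transporters and 1 ATPase were called, and with the cell isolation covariate 1 regulator, 7 transporters and 4 ATPases. The replicate numbers 1, 4 and 5 are shared by the groups. For these numbers the libraries' deviations from their group means correlated at 0.20, -0.11 and 0.016. Libraries with unlike numbers correlated at -0.35 to 0.30. So few shared numbers cannot decide whether a number marks a pair, and neither can the block, which lost every call. Over both groups together, the ratio of Atp1b2 over Fxyd2 per length turned to -0.53 on assembled TPM. It passed the test without diabetic 4 or diabetic 5, with values of 0.63 to 0.98 over libraries left out. Leaving out libraries gave 2.08 to 2.35 for Fxyd5 over Atp1b1 and 1.68 to 2.05 for Atp1b1 over Atp1b2. These were 1.502 and 2.60 with the mean reference length and 3.49 and 1.35 on assembled TPM. TPM of reference transcripts alone was not run, since those of Fxyd2 and Fxyd5 were each assembled in 1 library; TPM summed at the locus replaced it. The covariates, the groups of libraries left out and the locus TPM were chosen after the data were seen. The cause of each change was not tested. The count of Fxyd2 (6 to 49 per library) limits its precision.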

Other observations

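Transcripts were also assembled on the strand opposite to Fxyd2. A single-exon transcript lay at 49712953 to 49713305 on Rnor6 chromosome 8 across control 3, control 5 and all 4 diabetic libraries, at 7.73 and 7.65 TPM in these controls and 33.0, 15.4, 23.3 and 13.1 TPM in diabetic 1, 2, 4 and 5. It overlaps the internal first exon assembled in diabetic 2 and diabetic 4. None was assembled there in control 1, control 4 or control 6. Transcripts on the other strand were assembled at the loci of Fxyd5, Atp1b1 and Atp1b2 in all libraries too, with 65.5 to 186 TPM at Fxyd5, so such transcripts were not limited to Fxyd2. The library kits the labels name, SmartSeq v4 and NexteraXT, do not mark strand, so the strand of a single-exon transcript is as the authors' assembly lists it. TPM on the gene's strand leaves these other-strand transcripts out at every locus.

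At the Atp1b1 locus, counts and assembled TPM ordered the control libraries differently. Controls 3 and 6, with the highest gene counts (251 and 252 CPM), had the lowest TPM on the gene's strand among controls (17.3 and 14.2 TPM). On the other strand they had 59.8 and 70.2 TPM. Control 4 had 68.0 TPM on the other strand too, with the highest TPM on the gene's strand (41.4 TPM). The cause was not tested.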
